A study of Mus musculus with 24 samples.

Results

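Granzymes, perforin and Nkg7 are the effector proteins of the cytotoxic granule. The genes described here are Gzma, Gzmb, Gzmc, Gzmk, Prf1 and Nkg7. They were chosen by name, as every probe whose symbol in the deposited table is 1 of these 6 genes, out of 18120 gene symbols in that table. The 6 genes have 7 probes among 25697, of which 2 are for Prf1. A probe counts as detected on an array where its detection p, computed against negative control probes, is at most 0.02. The 4 probes of Gzmk, Prf1 and Nkg7 were detected on at least 1 of 24 arrays and were tested. The probes of Gzma, Gzmb and Gzmc were detected on no array.

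The RNA came from CD4+ T cells of the spleens and lymph nodes of mice aged 4 to 6 weeks, either WT or BAF180-deficient, with 3 arrays (replicates A, B and C) for each of 4 cell states per genotype. Resting naïve cells were CD4+CD62L+ cells enriched to 95% purity and used directly. Stimulated naïve cells had then spent 24 hours on plates coated with antibodies to CD3 (1 µg/ml) and CD28 (2 µg/ml). Resting Th2 cells were grown on that coating with IL-4 (10 ng/ml) and anti-IFN-γ (10 µg/ml) and expanded in IL-2 (100 U/ml), and the stimulated ones received PMA (50 ng/ml) and ionomycin (500 ng/ml) for 1.5 hours. The 2 stimulations therefore differ in agent and in duration as well as in the cell treated. BAF180, encoded by Pbrm1, is a subunit of the PBAF form of the SWI/SNF chromatin remodeling enzyme. Its floxed gene was deleted by Cre under the CD4 promoter, so the deletion affects T cells, from the thymus onward. The labels call all mice Balb/c, whereas the methods describe a mixed genetic background, and whether WT mice carried Cre is not given in the sources used here. The arrays came from 3 pairs of mice, each of 1 WT and 1 BAF180-deficient animal, by the account given with the study. The labels do not tie a replicate letter to a pair.

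Cytotoxic lymphocytes kill by releasing granules onto a target cell. Perforin makes pores through which granzymes, a family of serine proteases, enter and cleave proteins that trigger cell death, and Nkg7 is a membrane protein of the same granules that takes part in their release. CD8 T cells and natural killer (NK) cells are the main users of this machinery, while CD4 T cells hold less of it, and Th2 cells are best known for secreting IL-13, IL-5 and IL-4.

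Of the tested members, Nkg7 had the largest differences between states. It fell 6.38-fold in WT and 5.80-fold in BAF180-deficient cells from resting naïve to resting Th2 cells, and rose 4.22-fold and 4.15-fold when Th2 cells were given PMA and ionomycin. The brighter of the Prf1 probes was 2.01-fold and 2.14-fold lower in stimulated naïve and 2.25-fold and 2.62-fold lower in resting Th2 than in resting naïve cells, in WT and BAF180-deficient cells respectively. These folds are of normalized values, and the deposited intensities of that probe overlapped between these states. Gzmk was detected in resting naïve cells and in no other state. No member gene differed between the genotypes in any state by the criteria used.

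Between 8047 and 10689 probes were detected per array, the median intensity lay between 40.6 and 48.9, and replicate arrays of a group correlated at 0.949 to 0.989 across probes. Pbrm1 was lower in BAF180-deficient cells in all 4 states, by 1.01 to 1.86 on the log2 scale, and its arrays did not overlap between genotypes. Of all tested probes 6.46% to 10.1% did not overlap between genotypes, depending on the state. All 6 CD4 T cell markers (Cd3d, Cd3e, Cd3g, Cd4, Cd28 and Lck) were detected on every array. Il4, the defining Th2 cytokine, had a mean log2 level of 14.02 in WT stimulated Th2 against 6.93 in WT resting naïve cells. On a linear scale the 6 Th2 markers chosen summed in WT to 19014 to 19635 in stimulated Th2 cells. In resting Th2 cells the sum was 1344 to 2218, overlapping the 1227 to 2111 of stimulated naïve cells. The 4 naïve markers summed to 2843 to 3679 in WT resting Th2 and 2477 to 3491 in resting naïve cells. The 4 activation markers summed to 4179 to 4901 in WT resting naïve and 2981 to 3513 in stimulated naïve cells. All levels below are log2 of the intensity after background correction and quantile normalization, a scale on which the members' undetected values lie between 4.12 and 4.803, and levels of different probes are not compared.

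Granzymes A, B and C were not detected in any state. Gzma encodes the abundant tryptase of killer cells, Gzmb the main activator of caspases among granzymes, and Gzmc a close relative of Gzmb in the mouse cluster on chromosome 14. Gzmb and Gzmc are on chromosome 14 in the file, Gzmk on 13, Prf1 on 10 and Nkg7 on 7, and the file gives none for Gzma. Probe coordinates are not printed, since those in the file do not come from 1 genome build. The first 30 of the 50 bases of each of these probes are shown so that the measured target can be seen.

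Gzma: cctctcagataaacacctcaattggataaa
Gzmb: taatttccttatcaaatgacatcttttaat
Gzmc: caagagttttgagttttgtatcgtggataa

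Across the 24 arrays the deposited intensity was 34.9 to 47 for the Gzma probe, 35.2 to 45.3 for Gzmb and 34.5 to 40.9 for Gzmc. The lowest intensity at which any probe was detected was 44.6 to 55.6, depending on the array. Every value of the 3 probes was below that limit on its own array, and the lowest detection p was 0.0815, 0.164 and 0.305, in the same order. No fold change is given, since both sides of each comparison are undetected. The Gzmb probe has 10 G or C among its 50 bases, Gzmc 18 and Gzma 19, against 26 to 28 in the 4 probes that were detected. The part of base composition in the low signal was not tested. Of the other granzymes on the array, Gzme, Gzmf, Gzmg and Gzmn were likewise detected nowhere, Gzmd on 7 arrays and Gzmm on 18.

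**Figure D1:**
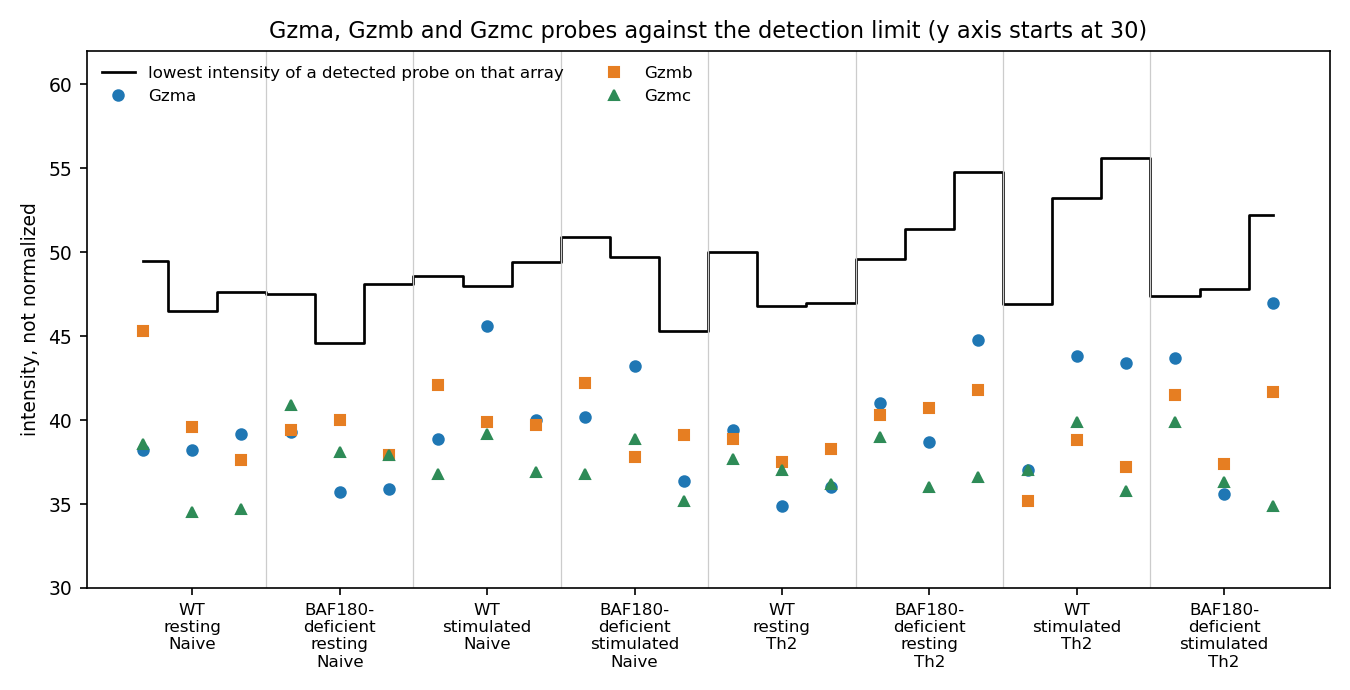
Deposited intensity (y axis, starting at 30) of the Gzma, Gzmb and Gzmc probes on each of the 24 arrays, ordered by state, genotype and replicate A to C (x axis). The black line is the lowest intensity of a detected probe on that array, between 44.6 and 55.6, and every point lies below it.

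Gzmk, a granzyme of memory-type T cells with trypsin-like activity, was detected on 5 arrays, all of resting naïve cells. Its probe, of which the first 30 bases are shown as the only granzyme sequence among the 6 genes that gave signal, has 27 G or C in 50.

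Gzmk: ccagaggccactctcccaccgtggttttag

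In WT resting naïve cells its level was 4.22, 5.27 and 5.68 on replicates A, B and C, and in BAF180-deficient ones 5.58, 5.09 and 5.19. WT replicate A was undetected and as low as the arrays of the other states, while the other 5 stood clear. The remaining 18 arrays lay between 4.25 and 4.58 and were all undetected. In BAF180-deficient cells the resting naïve arrays did not overlap those of stimulated naïve or resting Th2 cells, whereas in WT they did, through replicate A. Among all tested probes 48.1% and 49.6% did not overlap in those BAF180-deficient comparisons, in that order.

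Gzmk passed the filter on detection through resting naïve cells alone, so it had to differ from the other states, and its p-values and calls are given as values of the fit and not as support. Since the dimmer state was undetected, the Gzmk change is a bound. The mean of the resting naïve arrays was set against the lowest detected signal of each dim array. Gzmk was at least 1.58-fold higher in resting than in stimulated naïve BAF180-deficient cells (limma adjusted p = 0.00232) and at least 1.64-fold higher than in resting Th2 cells (adjusted p = 0.00358). The WT bounds, from a mean of which 2 of 3 arrays were measured, were 1.32-fold (adjusted p = 0.0133) and 1.37-fold (adjusted p = 0.00896). Both WT calls were lost without replicate C of resting naïve cells (adjusted p = 0.114 and 0.0680), and the first also without replicate B (adjusted p = 0.0617). Between genotypes in resting naïve cells the difference was 0.23 ± 0.22 (SE, n = 3 and 3, adjusted p = 0.994) in favour of BAF180-deficient cells, and the arrays overlapped. It became -0.19 without WT replicate A.

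Perforin, the pore-forming protein, is encoded by Prf1 and was read by 2 probes that did not behave alike. The dimmer probe was detected on 8 arrays and the brighter on all 24. Their sequences are shown because they bear on how far each value can be assigned to Prf1. The dimmer probe is given by its first 30 bases and the brighter by bases 10 to 39, with the capitals marking the stretch of 16 bases that recurs most often in other genes' promoter windows.

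Prf1 (dimmer probe): ccatgaggtgacatgtgagctaaaccacgg
Prf1 (brighter probe): atatctaTGAGTTCGAGGCCAGCctgggtc

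Every stretch of 16 bases of each probe was looked for, on both strands, in 32851 promoter windows of 300 bases from RefSeq (GRCm38.p6). The brighter Prf1 probe shared at least 1 stretch with 13 windows (0.0396%), and only 82 of the 25697 probes, itself included, matched as many. The capitals alone were in 8 windows. The dimmer probe and those of Gzma, Gzmb, Gzmc and Nkg7 matched no window, like 77.6% of all probes, and the Gzmk probe matched 1. The same stretch belongs to the B1 repeat family of mouse, copies of which lie in many genes. Whether other transcripts add to the signal of the brighter probe was not tested, and its level is therefore given as that of the probe.

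The brighter probe was highest in resting naïve cells. Its level there was 8.16, 8.56 and 8.33 on WT replicates A, B and C and 8.38, 8.49 and 8.62 on BAF180-deficient ones. In stimulated naïve cells it was 7.39, 7.28 and 7.37 in WT and 7.65, 7.39 and 7.16 in BAF180-deficient cells. After normalization all 6 resting naïve arrays lay above all arrays of the other states. Of all tested probes, 48.2% in WT and 48.1% in BAF180-deficient cells did not overlap between resting and stimulated naïve cells. Between resting naïve and resting Th2 cells the shares were 42.9% and 49.6%. In resting Th2 cells the values were 7.35, 7.48 and 6.71 in WT and 7.39, 7.14 and 6.79 in BAF180-deficient cells. After PMA and ionomycin they were 8.01, 8.06 and 7.16 in WT and 7.79, 7.74 and 7.79 in BAF180-deficient cells. Replicate C was the lowest of its group in resting Th2 cells of both genotypes and in WT stimulated Th2 cells. The deposited intensities of this probe, before normalization, did not separate these states. In WT they were 136.7 to 250.3 in resting naïve, 150.2 to 232.7 in stimulated naïve and 121.6 to 256.1 in resting Th2 cells. In BAF180-deficient cells they were 181.3 to 303.6, 203.6 to 227.9 and 192.7 to 243.6 in that order. The part of normalization in the differences was not tested.

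The dimmer probe lay between 4.21 and 5.78. Of the 8 arrays that detected it, 7 were replicate C, at least 1 in every group but WT resting Th2, and the eighth was WT resting naïve replicate B. It was called in no comparison, save at an adjusted p of 0.0243 between resting Th2 and resting naïve WT cells when the fit held those groups alone. Over the 24 arrays the 2 Prf1 probes correlated at r = 0.27, and at -0.33 after the group means were removed, which is a description over arrays that share groups and normalization. Which probe is read therefore decides whether Prf1 is called.

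Nkg7, the granule membrane protein, was detected on all 24 arrays by 1 probe. Its first 30 bases are shown since this probe carries most of the differences reported here, and it shared no stretch of 16 bases with any promoter window.

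Nkg7: ctcaagtccagacattcttctcctggtcct

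In resting naïve cells the level was 8.35, 9.08 and 8.47 on WT replicates A, B and C and 9.34, 8.98 and 8.93 on BAF180-deficient ones. In stimulated naïve cells it was 7.77, 7.13 and 7.52 in WT and 9.28, 7.86 and 7.25 in BAF180-deficient cells. BAF180-deficient replicate A of the stimulated cells was thus within the range of resting cells and well above the others of its group. In resting Th2 cells the values were 5.94, 5.34 and 6.59 in WT and 7.02, 5.67 and 6.96 in BAF180-deficient cells. After PMA and ionomycin they were 8.11, 7.44 and 8.56 in WT and 9.35, 7.82 and 8.64 in BAF180-deficient cells. Resting Th2 cells held the lowest arrays of both genotypes, below every array of the other 3 states. In the deposited intensities WT resting Th2 cells, at 58.5 to 114.7, were also below the other 3 states. BAF180-deficient resting Th2 cells, at 97.9 to 238.7, overlapped both stimulated states of their genotype there, at 224.9 to 606.9 in naïve and 199.8 to 610.1 in Th2 cells. Among BAF180-deficient arrays, replicate A was the highest in all 4 states.

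The means ordered the states alike in both genotypes. In WT they were 8.63 ± 0.39 (SD, n = 3) in resting naïve, 8.04 ± 0.57 in stimulated Th2, 7.47 ± 0.32 in stimulated naïve and 5.96 ± 0.62 in resting Th2 cells. In BAF180-deficient cells they were 9.08 ± 0.22, 8.60 ± 0.77, 8.13 ± 1.04 and 6.55 ± 0.76 in that order. Neighbours in this order had overlapping arrays, except that stimulated naïve and resting Th2 cells did not overlap in either genotype. Among all tested probes 35.1% in WT and 34.6% in BAF180-deficient cells did not overlap between those states.

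**Figure D2:**
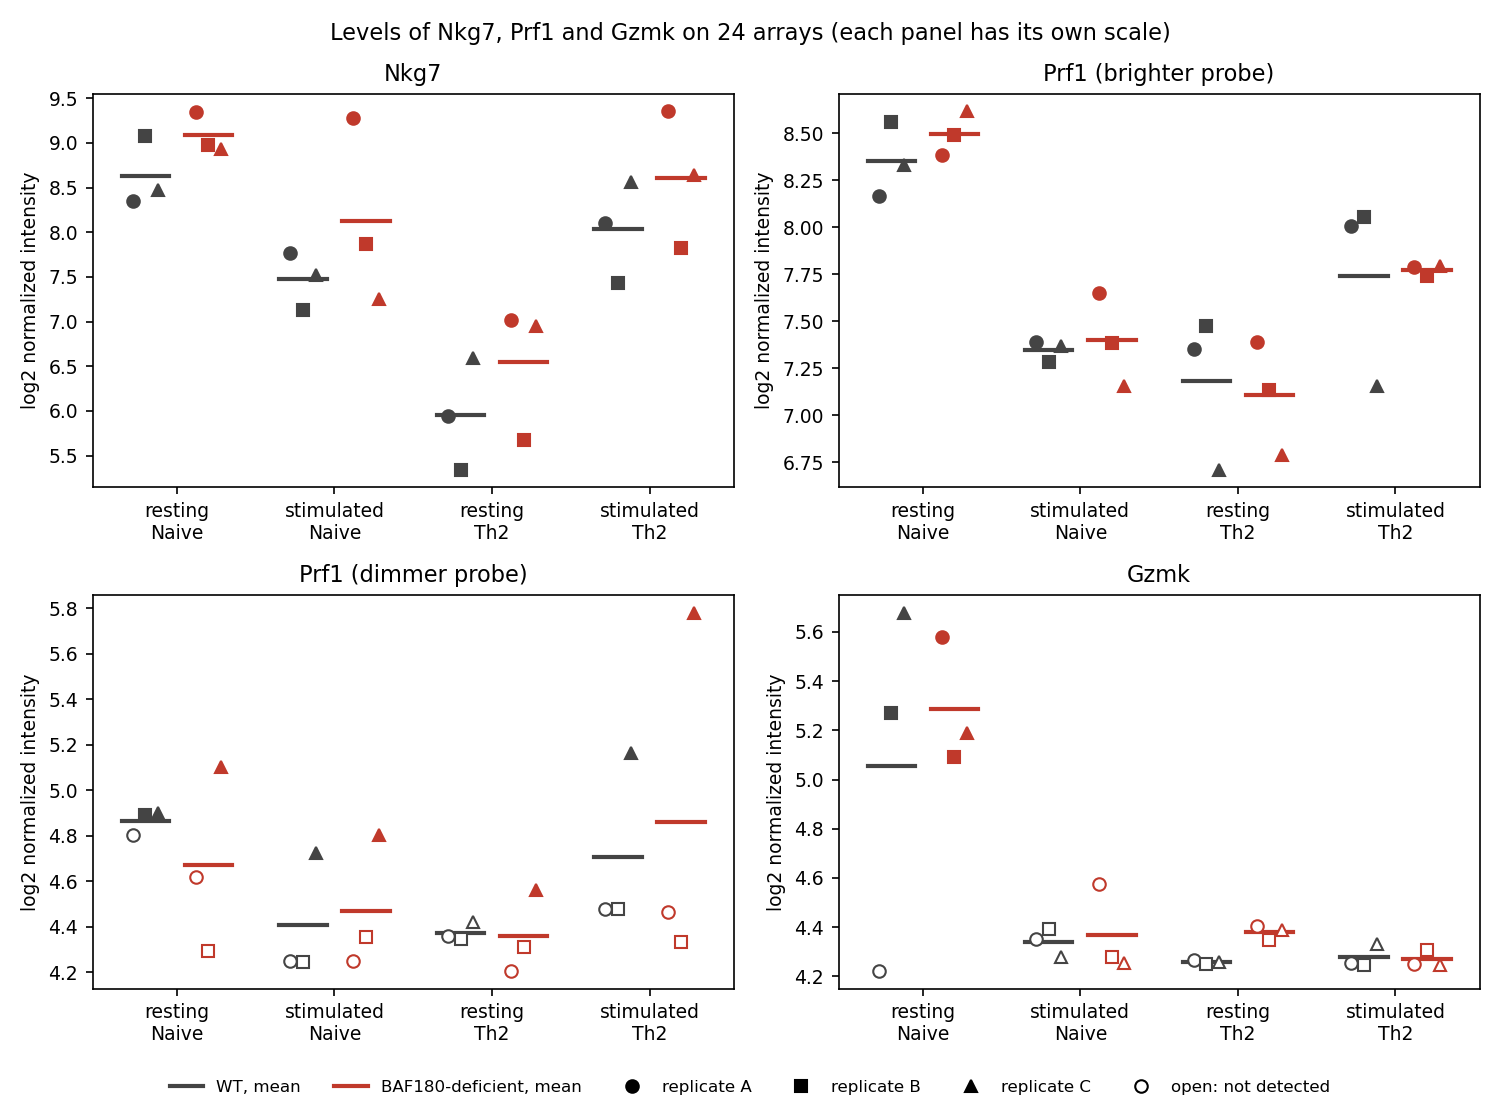
Log2 normalized intensity (y axis, a scale per panel) of Nkg7, of both Prf1 probes and of Gzmk in the 4 cell states (x axis), with WT arrays in dark grey and BAF180-deficient arrays in red. Symbols are replicates A, B and C, open where undetected, and lines are means of 3 arrays. Resting Th2 cells are lowest for Nkg7, resting naïve cells highest for the brighter Prf1 probe, and Gzmk is detected in resting naïve cells alone.

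The first comparison between states asks what anti-CD3 and anti-CD28 did to naïve cells. The brighter Prf1 probe fell by 1.00 ± 0.22 (SE of the log2 difference, n = 3 and 3, limma adjusted p = 0.000825) in WT and by 1.10 ± 0.22 (adjusted p = 0.000365) in BAF180-deficient cells. Nkg7 differed by -1.16 ± 0.47 in WT (adjusted p = 0.0514) and by -0.95 ± 0.47 in BAF180-deficient cells (adjusted p = 0.113), neither past the threshold of 0.05. The normalized WT arrays of Nkg7 did not overlap, and those of BAF180-deficient cells did, through replicate A. The deposited WT intensities of Nkg7 overlapped, at 149.7 to 273.7 in resting and 139 to 259.6 in stimulated naïve cells. After normalization 48.2% of all tested probes in WT and 48.1% in BAF180-deficient cells did not overlap. The WT value of Nkg7 passed with the arrays of the groups compared alone (adjusted p = 0.0105) and with 3 other alternatives. With the replicate letter as a block within each genotype both Nkg7 differences passed, with adjusted p = 0.0140 in WT and 0.0413 in BAF180-deficient cells, and without BAF180-deficient stimulated replicate A the difference there was -1.53 (adjusted p = 0.0101). So, of the genes detected in both states, Prf1 was called lower in each genotype by its brighter probe and Nkg7 in neither, where 43.6% of all probes were called in WT and 41.6% in BAF180-deficient cells. The dimmer Prf1 probe, at -0.46 in WT (adjusted p = 0.216) and -0.20 in BAF180-deficient cells (adjusted p = 0.619), was not called.

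Resting Th2 cells were then compared with the resting naïve cells they were grown from. Nkg7 fell by 2.67 ± 0.47 in WT (adjusted p = 0.000162) and by 2.54 ± 0.47 in BAF180-deficient cells (adjusted p = 0.000282). The brighter Prf1 probe fell by 1.17 ± 0.22 (adjusted p = 0.000314) and by 1.39 ± 0.22 (adjusted p = 5.18e-05). The dimmer Prf1 probe, at -0.49 in WT (adjusted p = 0.203) and -0.31 in BAF180-deficient cells (adjusted p = 0.432), was not called. Nkg7 and, by its brighter probe, Prf1 were thus called lower in each genotype, Gzmk being set aside as above. Of all probes, 34.4% in WT and 34.7% in BAF180-deficient cells were called in either direction. The median difference of all tested probes was 0.03 in each.

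Markers of other cell types moved with this comparison and with the first. The NK cell markers on the array, 9 of 10 chosen, summed to 824 to 1929 on a linear scale in WT and 852 to 1195 in BAF180-deficient resting naïve cells, and to 165 to 222 on the 18 other arrays. Of them, 3 (Klrd1, Tyrobp and Fcer1g) were detected on all arrays of both resting naïve groups. The defining receptor Ncr1 was detected on no array and Klrb1c on 1. The 5 myeloid markers summed to 953 to 3528 in resting naïve cells and 101 to 133 elsewhere, with Lyz2, Csf1r, Cd14 and Cd68 detected on all 6 resting naïve arrays and Itgam on none. The NK and the myeloid sum were both highest on WT resting naïve replicate C, at 1929 and 3528. Whether the Tyrobp and Fcer1g RNA came from NK or from myeloid cells was not tested. B cell markers summed to 329 to 929 in resting naïve and 81.1 to 449 in other cells. Of the CD8 pair, Cd8a was undetected everywhere and Cd8b1 detected on all arrays, and together they summed to 302 to 519 in resting naïve and 105 to 374 in other cells. On stimulation of naïve cells Cd8b1 fell by 1.42 in BAF180-deficient cells (adjusted p = 0.0119) and differed by -0.77 in WT (adjusted p = 0.162). From resting naïve to resting Th2 cells it fell by 1.40 in BAF180-deficient cells (adjusted p = 0.0164) and differed by -0.59 in WT (adjusted p = 0.318). The genotype differences in these Cd8b1 changes, -0.64 and -0.81 (BAF180-deficient minus WT, same order), were not called. The 4 mast cell and basophil markers stayed between 74.6 and 94.3, and the one NKT marker chosen, Zbtb16, has no probe under that symbol. The part of NK, CD8 or other cells in the higher resting naïve levels of Gzmk, Prf1 and Nkg7 was not tested, and in bulk RNA fewer cells of a type and less RNA per cell cannot be told apart.

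**Figure D3:**
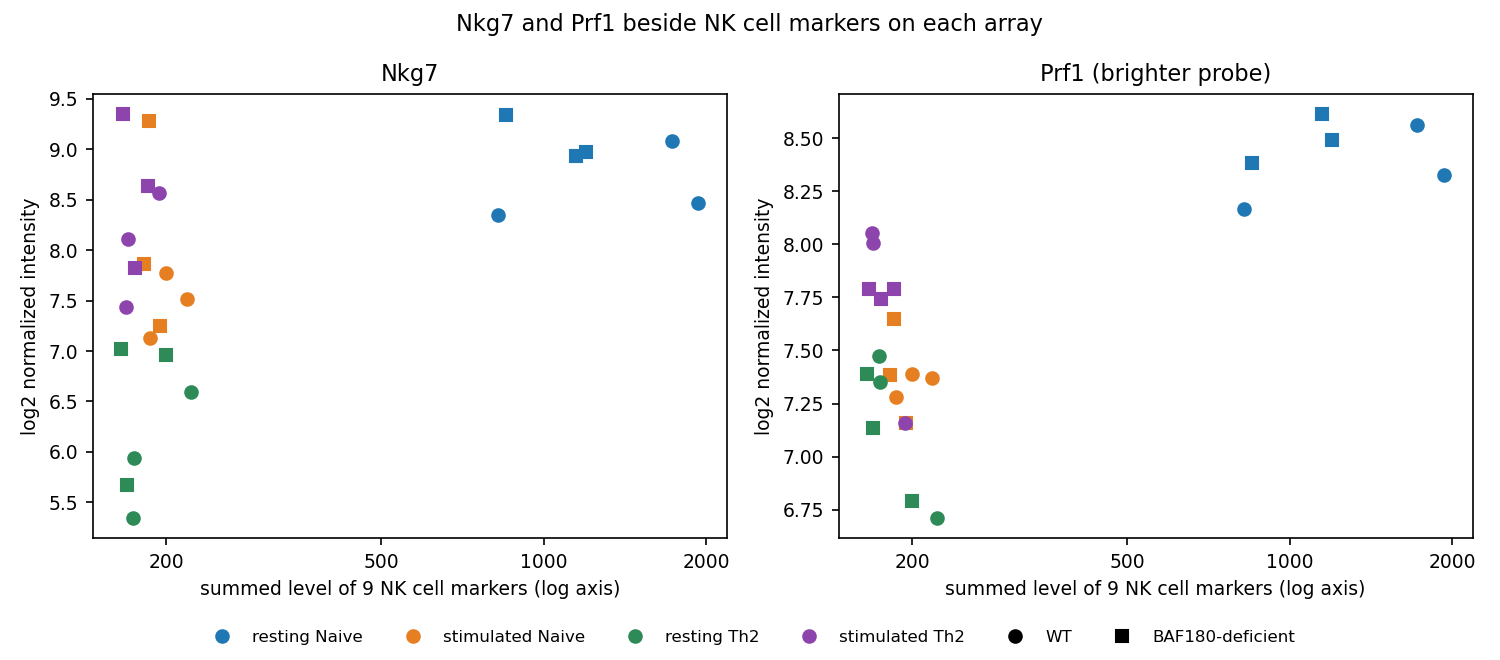
Log2 normalized intensity of Nkg7 (left) and of the brighter Prf1 probe (right) against the summed level of 9 NK cell markers (x axis, log scale), 1 point per array, coloured by state and shaped by genotype. The 6 resting naïve arrays lie at 824 to 1929 and all others at 165 to 222, where Nkg7 spans 5.34 to 9.35. Whether the RNA of these markers came from NK cells alone was not tested.

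Outside resting naïve cells the NK and myeloid sums spanned little, while the B cell and CD8 sums spanned the wider ranges given above. From stimulated naïve to resting Th2 cells, Nkg7 fell by 1.51 ± 0.47 in WT (adjusted p = 0.0236) and by 1.58 ± 0.47 in BAF180-deficient cells (adjusted p = 0.0194). Its arrays did not overlap, as for 35.1% of all tested probes in WT and 34.6% in BAF180-deficient cells. The Nkg7 calls rested on single arrays. In WT the adjusted p was 0.0583 to 0.123 without stimulated naïve replicate A or C or resting Th2 replicate A or B. In BAF180-deficient cells it was 0.140 without stimulated naïve replicate A and 0.133 without resting Th2 replicate B, and 0.121 when the fit held only the groups compared. The brighter Prf1 probe differed by -0.17 ± 0.22 (95% interval -0.62 to 0.29, adjusted p = 0.718) and by -0.29 ± 0.22 (-0.75 to 0.17, adjusted p = 0.437). Nkg7 was thus called in each genotype and Prf1 in neither, where 22.3% of probes were called in WT and 20.5% in BAF180-deficient cells.

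PMA and ionomycin raised Nkg7 in Th2 cells within 1.5 hours. The rise was 2.08 ± 0.47 in WT (adjusted p = 0.00198) and 2.05 ± 0.47 in BAF180-deficient cells (adjusted p = 0.00243). Stimulated and resting arrays did not overlap, as for 40.3% of all tested probes in WT and 42.9% in BAF180-deficient cells. Of the 9 NK markers, 2 were detected on replicate C and 0 on replicates A and B in each stimulated Th2 group. The same held for BAF180-deficient resting Th2 cells. WT stimulated replicate C had the highest NK sum (194) and the highest Nkg7 (8.56) of its group. The part of other cells in the Nkg7 rise was not tested. The brighter Prf1 probe was higher by 0.56 ± 0.22 in WT (adjusted p = 0.0657) and rose by 0.67 ± 0.22 in BAF180-deficient cells (adjusted p = 0.0286). The values lie on opposite sides of the threshold, and the difference between them, 0.11 ± 0.31, was not called (adjusted p = 1.00). In WT the arrays overlapped through replicate C of stimulated cells, and without it the difference was 0.85 (adjusted p = 0.00390). The adjusted p was 0.0390 without WT resting Th2 replicate B and 0.0378 with the letter as a block within the genotype. In BAF180-deficient cells the adjusted p was 0.0636 to 0.140 without resting replicate B or C or any 1 of the 3 stimulated replicates. Gzmk was undetected on both sides. The dimmer Prf1 probe, at 0.33 in WT (adjusted p = 0.480) and 0.50 in BAF180-deficient cells (adjusted p = 0.238), was not called. Hence Nkg7 was called higher in both genotypes and Prf1, by its brighter probe, in BAF180-deficient cells. Of all probes, 27.3% in WT and 25.8% in BAF180-deficient cells were called.

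**Figure D4:**
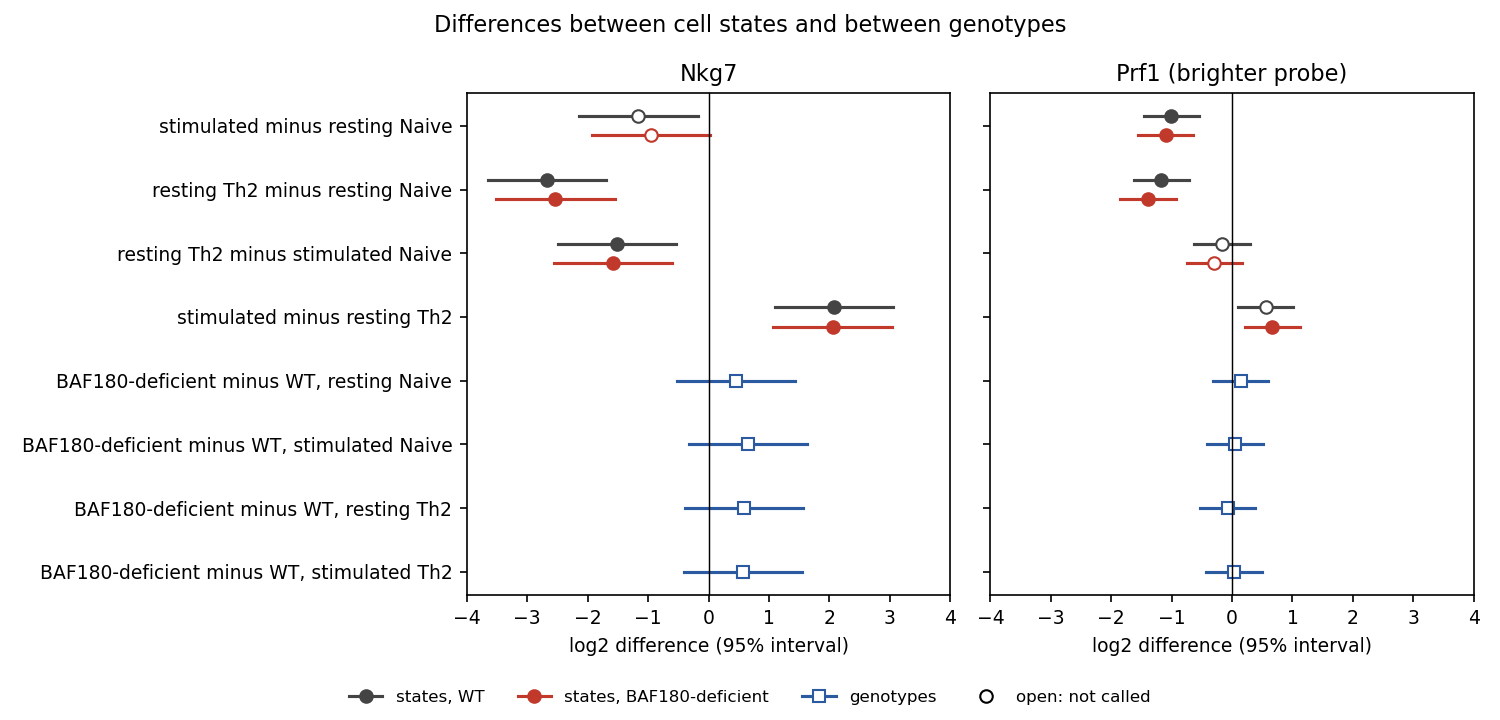
Log2 differences of Nkg7 (left) and the brighter Prf1 probe (right) between cell states in WT (grey) and BAF180-deficient cells (red), and between genotypes in each state (blue), with 95% intervals of the limma fit. Filled symbols were called. Nkg7 lies at -2.67 and -2.54 for resting Th2 against resting naïve cells and at 2.08 and 2.05 after PMA and ionomycin, and all 8 genotype intervals span 0.

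The genotype comparison asks what loss of BAF180 did in each state. A probe was called when its Z-ratio (difference over the SD of all differences) passed 1.5, its FDR was below 0.3, its p below 0.05 and its mean signal above 0. Nkg7 was higher in BAF180-deficient cells by 0.45 ± 0.47 in resting naïve, 0.66 ± 0.47 in stimulated naïve, 0.59 ± 0.47 in resting Th2 and 0.57 ± 0.47 in stimulated Th2 cells (SE, n = 3 and 3 each). The limma adjusted p was 0.996 to 1 and the arrays overlapped in every state. The intervals ran from -0.53 to 1.64 at their widest limits, and all spanned 0. The Z-ratios were 1.89 to 3.47, past their limit, so the calls failed on p and FDR.

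Read by letter, Nkg7 was higher in the BAF180-deficient array in 10 of 12 same-letter pairs. The difference was largest for replicate A, at 0.99, 1.51, 1.08 and 1.24 in the order of states above, and ran from -0.11 to 0.74 for replicate B and from -0.27 to 0.46 for replicate C. The same letters recur in every cell state. If a letter marks a pair of mice, the 12 pairs of a probe repeat the same animals and are not independent. Of all 14246 tested probes, 4.72% were higher in at least 10 of the 12 pairs and 4.02% lower in at least 10. With the letter as a block within each state the SE was 0.30, the p 0.161, 0.0492, 0.0735 and 0.0840, and the adjusted p 0.641 to 1, so no call changed.

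The brighter Prf1 probe differed between genotypes by 0.15, 0.05, -0.07 and 0.03 in the same order, each ± 0.22, and was higher in 7 of 12 pairs. The dimmer differed by -0.19, 0.06, -0.01 and 0.15, each ± 0.29, and was higher in 5. Gzmk, undetected outside resting naïve cells, was higher in 6. In the limma fit without a block no member gene was called and none had an unadjusted p below 0.05 in any state. Among all probes 0.681% were called in resting naïve, 0.112% in stimulated naïve, 0.0842% in resting Th2 and 0.0913% in stimulated Th2 cells.

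The state changes were also compared between genotypes. For Nkg7 the response to anti-CD3 and anti-CD28 differed by 0.21 ± 0.66, that to PMA and ionomycin by -0.02 ± 0.66 and the step from resting naïve to resting Th2 cells by 0.14 ± 0.66 (BAF180-deficient minus WT, adjusted p = 1.00 for each). For the brighter Prf1 probe these differences were -0.09, 0.11 and -0.22, each ± 0.31. No member was called, where 0.00702%, 0% and 0.00702% of probes were, and 329, 257 and 387 of the 14246 probes had an unadjusted p below 0.05 in limma.

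The 2 stimulations were also set against each other. The PMA and ionomycin response of Th2 cells minus the anti-CD3 and anti-CD28 response of naïve cells was called for Nkg7 and the brighter Prf1 probe in both genotypes, where 25.0% of probes were called in WT and 26.4% in BAF180-deficient cells. This comparison was added after the values were seen, and cell, agent and duration cannot be told apart in it.

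The genes whose level followed a member most closely over the 24 arrays were picked among non-members by Pearson's r. For Nkg7 they were Ext1 (r = 0.90), Rapgef1 (0.88) and Tmem38b (0.86). For the brighter Prf1 probe they were Dmtf1 (0.89), Atg16l1 (0.88) and Sat1 (0.88). For Gzmk they were Zan (0.95), Popdc2 (0.94) and Psd2 (0.93), and for the dimmer Prf1 probe Stard13 (0.75), Gal (0.75) and Hipk1 (0.74). Gzmk was detected on 5 of the 24 arrays, all of resting naïve cells, and the dimmer Prf1 probe on 8. Their r values therefore rest on the few arrays with signal and are given as description only. Nkg7 and the brighter Prf1 probe correlated at 0.66 over all arrays and at -0.10 within groups. These points share arrays, groups and normalization.

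The rest of the pathway was read from lists, each gene by its brightest probe. Over all probes, 23.6% rose and 20.0% fell with anti-CD3 and anti-CD28 in WT, and 22.3% and 19.3% in BAF180-deficient cells. From resting naïve to resting Th2 cells 18.4% rose and 16.004% fell in WT, and 18.8% and 15.9% in BAF180-deficient cells. With PMA and ionomycin 13.0% rose and 14.3% fell in WT, and 12.003% and 13.8% in BAF180-deficient cells. Of 6 other granzymes, Gzmd and Gzmm were tested. Gzmm, a granzyme typical of innate killer cells, fell by 0.78 in BAF180-deficient cells on stimulation of naïve cells (adjusted p = 0.00223), where WT differed by -0.28 (adjusted p = 0.263). The difference between these responses, -0.50, was not called. From resting naïve to resting Th2 cells Gzmm fell by 0.56 in WT (0.0274) and 0.78 in BAF180-deficient cells (0.00315). Gzmd was not called in any state comparison.

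Of 14 genes of granule cargo, processing and inhibitors, 11 were tested. Between resting naïve and resting Th2 cells 2 rose and 1 fell in WT, and 2 rose and 3 fell in BAF180-deficient cells, with a median of 0.16 and -0.18 against 0.03 for all probes. Cst7, cystatin F, which inhibits the cathepsins that activate granzymes, rose by 2.56 (adjusted p = 1.40e-07) and 2.70 (6.61e-08). Ctsw, a cathepsin of cytotoxic lymphocytes, fell by 1.77 (9.02e-05) and 1.16 (0.00442). On stimulation of naïve cells Ctsw fell by 3.03 in WT and 2.68 in BAF180-deficient cells, and in that comparison 4 genes rose and 4 fell in WT and 3 rose and 3 fell in BAF180-deficient cells. Serglycin (Srgn), the proteoglycan on which granule contents are packed, rose by 2.25 in WT (7.57e-06) and 1.98 in BAF180-deficient cells (4.11e-05) after PMA and ionomycin, as did Serpinb6b, a serine protease inhibitor, by 3.01 and 2.53. In that comparison 4 genes of the list rose in WT and 5 in BAF180-deficient cells, and Serpinb6a alone fell, by 1.20 and 1.06.

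Ctsc encodes cathepsin C, the protease that removes the activation peptide of granzymes. Its probe read 5.07, 4.57, 4.82 and 4.73 on WT replicate B, for naïve cells at rest and stimulated and then for Th2 cells at rest and stimulated. The 20 other arrays lay between 7.05 and 10.46. WT replicate B thus stood apart in the same way in all 4 states, and the genotype differences of Ctsc, none of them called (1.595 in resting naïve, 1.39 in stimulated naïve and 1.15 in both resting and stimulated Th2 cells), rest on it. Nkg7 was the highest WT array on that replicate in resting naïve cells and the lowest in the 3 other states.

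Of 10 genes of granule release 9 were tested, and most of those called fell on stimulation. With anti-CD3 and anti-CD28, 5 fell and none rose in each genotype, with a median of -0.63 in WT and -0.58 in BAF180-deficient cells against 0.01 and 0.02 for all probes, of which 20.0% and 19.3% fell. Sytl2, a tether of granules to the cell membrane, fell by 2.83 and 3.04, and Rab27a, the GTPase that docks them, by 0.85 and 0.93. With PMA and ionomycin 6 fell in WT and 5 in BAF180-deficient cells, with medians of -0.74 and -0.65 against 0.00 for all probes in both. Among them Vamp8, a membrane fusion protein, fell by 1.03 and 0.85 and Unc13d, which primes granules, by 0.61 and 0.65. From resting naïve to resting Th2 cells 1 fell in WT, and 2 fell and 1 rose in BAF180-deficient cells.

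**Figure D5:**
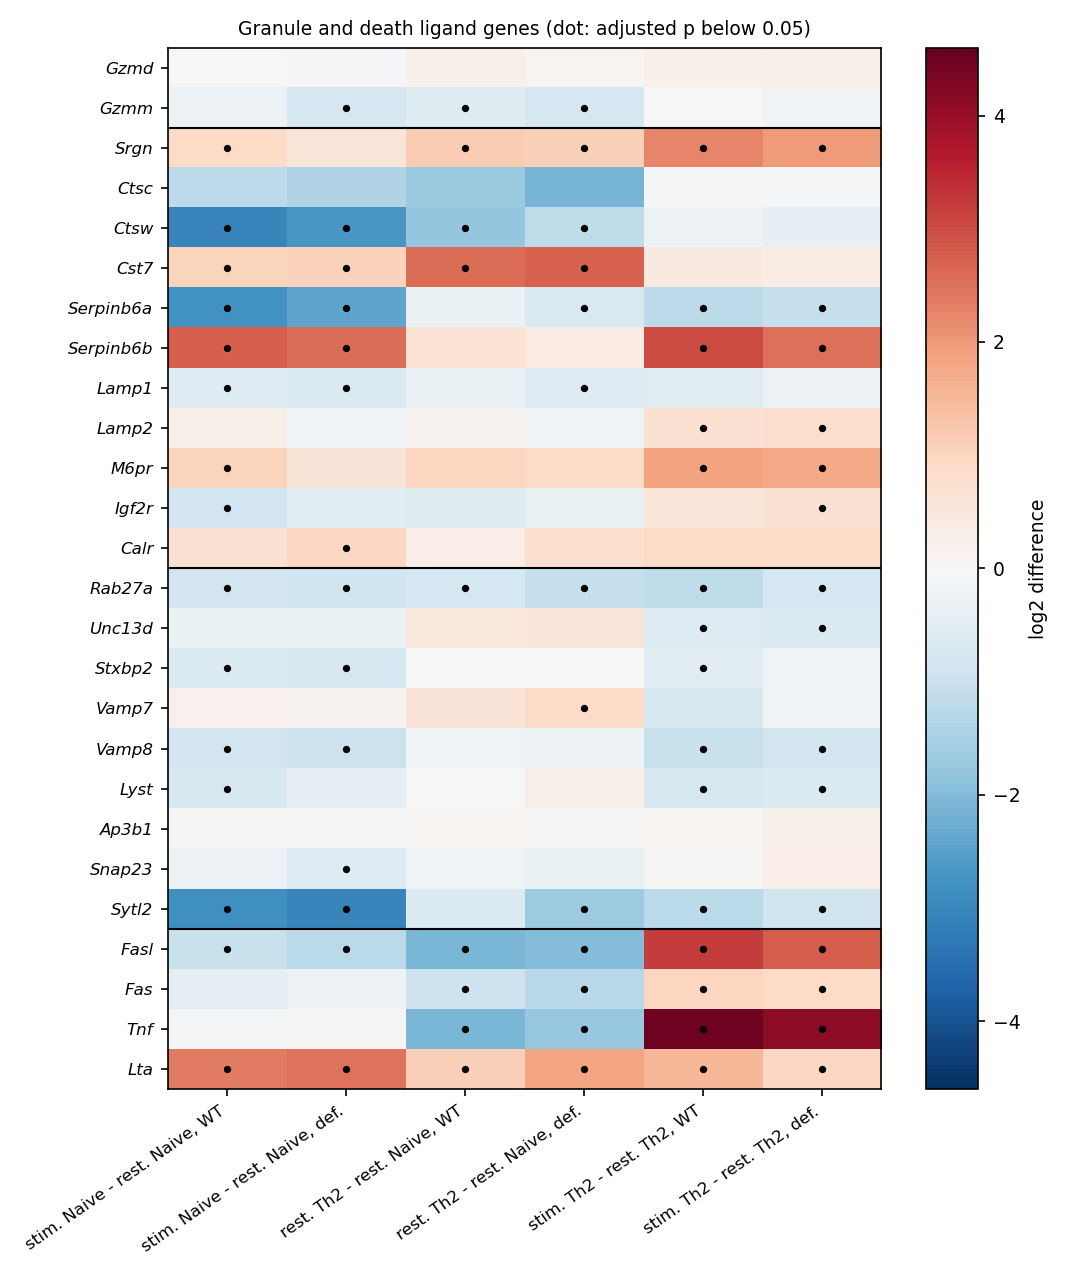
Log2 differences (colour) of the tested genes of the other granzymes, granule cargo, granule release and death ligand and receptor lists (blocks from top to bottom). Columns are 3 state comparisons per genotype (def. for BAF180-deficient). Dots mark an adjusted p below 0.05. Tnf, at 4.46 in WT, is the highest value, and Sytl2, Ctsw and Serpinb6a fall on stimulation of naïve cells.

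Death ligands are the other route by which T cells kill. Of 5 genes of death ligands and receptors, 4 were tested, namely the ligands Fasl, Tnf and Lta and the receptor Fas. All 4 rose with PMA and ionomycin in both genotypes, by a median of 2.38 in WT and 1.86 in BAF180-deficient cells. Of all probes 13.0% and 12.003% rose, and their median was 0.00 in both. Fasl, the ligand of the Fas receptor, rose by 3.23 (adjusted p = 1.69e-07) and 2.77 (1.68e-06), and Tnf by 4.46 (2.12e-09) and 4.11 (8.46e-09). From resting naïve to resting Th2 cells Fasl fell by 2.11 and 2.01. In that comparison 3 of the 4 fell and Lta rose in each genotype, and with anti-CD3 and anti-CD28 Fasl fell and Lta rose.

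Of 8 granzyme substrates and death effectors 6 were tested. With anti-CD3 and anti-CD28, 4 rose in WT and 3 in BAF180-deficient cells and none fell, with a median of 0.97 and 0.56 against 0.01 and 0.02 for all probes, of which 23.6% and 22.3% rose. With PMA and ionomycin 2 rose and 1 fell in WT and 1 rose in BAF180-deficient cells. Bid, cleaved by granzyme B to start mitochondrial death, was the one gene of all 6 pathway lists called between genotypes, at 0.68 higher in BAF180-deficient resting naïve cells (adjusted p = 0.229, within the FDR limit). Of all probes 0.681% were called between genotypes in that state.

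Of 22 regulators 18 were tested. Tbx21, which encodes T-bet, an activator of Prf1 and granzyme genes in killer cells, rose by 3.13 in WT (adjusted p = 4.18e-08) and 3.08 in BAF180-deficient cells (7.28e-08) with PMA and ionomycin, and by 2.42 and 2.66 with anti-CD3 and anti-CD28. Zeb2, a partner of T-bet in effector cells, rose by 3.48 and 3.51 with PMA and ionomycin and fell by 0.86 and 0.69 with anti-CD3 and anti-CD28. Runx3 was undetected on all arrays, and Eomes was detected on 2 of 24. Counts of the list, to be read against the shares of all probes given first, were 6 up and 2 down in each genotype with PMA and ionomycin, 7 up and 5 down in WT and 6 up and 5 down in BAF180-deficient cells with anti-CD3 and anti-CD28, and 6 up and 4 down in WT and 5 up and 5 down in BAF180-deficient cells from resting naïve to resting Th2 cells.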

How the data were processed

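Total RNA of each sample was made into biotin-labelled cRNA and hybridized to an Illumina MouseRef-8 v2 BeadChip. The authors deposited, for each probe and array, the average bead intensity, without normalization or background subtraction, from GenomeStudio (version 1.6.0 in the submitters' processing notes), and a detection p-value. The genome build of the probe coordinates is not given in the sources used here.

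The neqc function of limma 3.58.1 (R 4.3.3) subtracted background, whose distribution it reads from detection p-values, added 16, took log2 and applied quantile normalization. Probes reaching the detection limit of 0.02 on 1 array or more were kept (14246 of 25697). A linear model of 8 group means was fitted to all 24 arrays (lmFit and eBayes, 16 residual degrees of freedom), with Benjamini-Hochberg adjustment across kept probes. State comparisons were called at an adjusted p below 0.05. Genotype calls followed the 4 criteria of the methods with departures: p and FDR came from limma, the Z-ratio is the log2 difference over the SD of all differences and not one of Z-scores, and the limit on mean signal removes nothing, since every value on this scale is above 0. Having 3 arrays in each group limits the precision. The procedure was tested on simulated data.

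The study's text speaks of pairs of WT and BAF180-deficient mice, which the labels do not tie to letters. Replicate letters were read as those pairs because same-letter WT and BAF180-deficient arrays deviated together from their group means. Pooled over states, letter A gave a correlation of 0.30, letter B 0.14 and letter C 0.52, though 2 of the 12 single values, for resting naïve B (-0.0026) and resting Th2 A (0.047), were not above 0.1. The block within a state or genotype was added after the data were seen.

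Named genes were all probes of the 6 members (the brightest stands for a gene), the 3 genes most like each tested member, and list genes that were called or whose detection bears on a member. The members and lists were chosen with earlier results of these data known. Alternatives were Z-score normalization within arrays, no background correction, other filters, fits on the compared groups alone, the replicate block and leaving out each array.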

Additional observations from a re-analysis of the deposited data

Results flagged for a closer look

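Nkg7 and the brighter Prf1 probe responded differently to the 2 stimulations, by a test of the difference itself that was added after the values were seen. The single responses were not all called: that of Nkg7 to anti-CD3 and anti-CD28 missed the threshold in both genotypes (adjusted p = 0.0514 and 0.113), as did that of Prf1 to PMA and ionomycin in WT (0.0657). The log2 response of Th2 cells to PMA and ionomycin for 1.5 hours, minus the response of naïve cells to anti-CD3 and anti-CD28 for 24 hours, was 3.24 ± 0.66 for Nkg7 in WT (SE, limma adjusted p = 0.00105) and 3.01 ± 0.66 in BAF180-deficient cells (adjusted p = 0.00193). For the brighter Prf1 probe it was 1.56 ± 0.31 in WT (adjusted p = 0.000779) and 1.77 ± 0.31 in BAF180-deficient cells (adjusted p = 0.000232). The dimmer Prf1 probe gave 0.79 ± 0.41 in WT (adjusted p = 0.173) and 0.70 ± 0.41 in BAF180-deficient cells (adjusted p = 0.221), neither called.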

How the results depend on the processing

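The fall of Nkg7 and of the brighter Prf1 probe from resting naïve to resting Th2 cells and the rise of Nkg7 with PMA and ionomycin kept their direction and their call under every alternative run, in both genotypes. Every alternative brought the arrays to a common scale, so none tested that step. In the deposited intensities resting naïve and resting Th2 cells overlapped for the brighter Prf1 probe in both genotypes (136.7 to 250.3 and 121.6 to 256.1 in WT). For Nkg7 they did not (149.7 to 273.7 and 58.5 to 114.7 in WT). Counts of called member genes, Gzmk included, did change. The Gzmk calls against resting naïve cells follow from its detection there alone and are not support. Counts for those comparisons therefore exceed the ones given above, which set Gzmk aside. From resting naïve to resting Th2 cells the count was lower when Prf1 was read by its dimmer probe. That probe was not called in the main fit (limma adjusted p = 0.203 in WT and 0.432 in BAF180-deficient cells). For anti-CD3 and anti-CD28 the count of 2 became 1 in both genotypes when Prf1 was read by its dimmer probe, and ranged from 1 to 2 in WT and from 2 to 3 in BAF180-deficient cells when single arrays were left out. It became 3 in both genotypes with the replicate block within the genotype, and 3 in WT with the replicate block, without background correction and for probes detected on at least 3 arrays. For PMA and ionomycin in WT the count of 1 became 2 with Z-score normalization, with the replicate block and with the replicate block within the genotype, and ranged from 1 to 2 over single arrays left out. In BAF180-deficient cells the count of 2 became 1 with Z-score normalization, without a detection filter and with the dimmer probe, and ranged from 1 to 2. For resting Th2 against stimulated naïve cells the count of 1 became 0 in WT with Z-score normalization (Nkg7 adjusted p = 0.0621) and without a filter (0.0636), and 0 in BAF180-deficient cells without a filter (0.0533) and with the compared groups alone, and ranged from 0 to 1 over arrays left out in both genotypes. The comparison of the 2 stimulations went from 2 to 1 in both genotypes with the dimmer probe. The WT Gzmk calls were lost with the compared groups alone (adjusted p = 0.161 and 0.146). The values that changed sign were all small and uncalled. Between genotypes the brighter Prf1 probe became 0.020 in resting Th2 and -0.042 in stimulated Th2 cells with Z-score normalization, and over arrays left out it ranged from -0.075 to 0.17 in stimulated naïve, -0.31 to 0.084 in resting Th2 and -0.26 to 0.19 in stimulated Th2 cells, while Gzmk in resting naïve cells ranged from -0.19 to 0.54. From stimulated naïve to resting Th2 WT cells this Prf1 probe ranged from -0.31 to 0.068. The genotype difference in the response to PMA and ionomycin became -0.062 for the brighter Prf1 probe and 0.0030 for Nkg7 with Z-score normalization, and 0.086 for Nkg7 without background correction. Over arrays left out it ranged from -0.18 to 0.34 for Prf1 and from -0.46 to 0.37 for Nkg7, that in the response to anti-CD3 and anti-CD28 from -0.22 to 0.026 and from -0.37 to 0.65, and that in the step from resting naïve to resting Th2 cells from -0.17 to 0.58 for Nkg7. Over all probes the genotype calls of 97, 16, 12 and 13 in the 4 states (resting naïve, then stimulated, then Th2 in that order) became 592, 32, 136 and 44 with the replicate block within the cell state and 1, 0, 1 and 0 with the compared groups alone. Z-score normalization gave 32, 5 and 23 in the first 3 states, and in stimulated naïve cells there were 5 without background correction, 9 without a filter and 4 for probes detected on at least 3 arrays, with 5 in resting Th2 cells without a filter. The pairing changed no member's genotype call. The dimmer Prf1 probe and both nested blocks were chosen after seeing the data, the cause of these changes was not tested, and slide as a block was not run because the file headers give no slide. Gzma, Gzmb, Gzmc and, outside resting naïve cells, Gzmk lay below the detection limit, so differences between states could not be measured for them.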
